A study of Citrus sinensis with 12 samples.

Results

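Roots of sweet orange (Citrus sinensis) seedlings that had met low pH and excess copper together were compared with roots that had met neither. The comparison used 6 of the 12 RNA-sequencing libraries of the series, chosen by their treatment labels. There were 3 libraries from roots kept at pH 3 with 300 µM CuCl2, called combined-treatment roots here, and 3 from roots kept at pH 4.8 with 0.5 µM CuCl2, the double control. The other libraries, 3 from roots at pH 3 with 0.5 µM CuCl2 (low pH alone) and 3 from roots at pH 4.8 with 300 µM CuCl2 (copper alone), are given only beside the genes of this comparison. All groups were treated for 17 weeks, and 1 library stands for a pool of root material from 4 seedlings grown in separate pots, so a library value carries no plant-to-plant spread within its pool. The titles of the control samples state 5 µM copper, while their treatment labels and the design text state 0.5 µM, which was used.

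Copper is a cofactor of enzymes in electron transport and in the removal of reactive oxygen species, and in excess it is toxic, with roots as the first organ it reaches and the place where much of it is retained. Protons are themselves harmful to root tips at low pH, and acidity also keeps more copper dissolved as the free ion. The series asks, by its title, what a higher pH does against copper toxicity, and the combined treatment is the corner of that design farthest from the control in both factors.

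The files list 20122 genes by identifier, position and strand, with no gene names or functions, and 0 of these identifiers occur in the RefSeq gene table at hand. Identifiers and positions are printed as the files state them, and neither the root label nor the cell types in it could be checked against marker genes. Besides annotated genes, the tables hold 1392 loci that carry only a running number; these assembled loci are named by their coordinates. Levels are in FPKM, a fragment count divided by gene length and by library depth, and all differences are on the log2(FPKM + 1) scale, where 1 unit is called 2-fold and 2 units 4-fold. The spacing of low FPKM values put the depth of the 6 libraries at 17710000 to 22780000 fragments. A count of 3 fragments over 1 kb is then 0.132 to 0.169 FPKM, which is taken as the floor and allows for counting error alone. For genes shorter than 1 kb the same count is a higher FPKM, so their floor is higher. In bulk roots, fewer cells of a type and less RNA per cell cannot be told apart.

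Most of the genes tested were called changed, with more of them lower than higher in combined-treatment roots. Of 18928 genes whose mean reached 1 FPKM in one of the groups, 9924 (52.4%) passed the threshold of 0.05 on the Benjamini-Hochberg adjusted p of limma, 4654 of them higher (24.6%) and 5270 lower (27.8%) in combined-treatment roots. Rises of at least 2-fold numbered 1487 (7.86%) and falls of that size 1223 (6.46%). Rises of at least 4-fold numbered 288 (1.52%) and falls 90 (0.475%). The largest values of all were rises. The 3 libraries of each group did not overlap for 9764 of the called genes, and for 11613 (61.4%) of all tested genes, called or not. Large changes counted this way depend on the pseudocount: with 0.1 in place of 1, rises of at least 4-fold numbered 700 and falls 275.

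**Figure D1:**
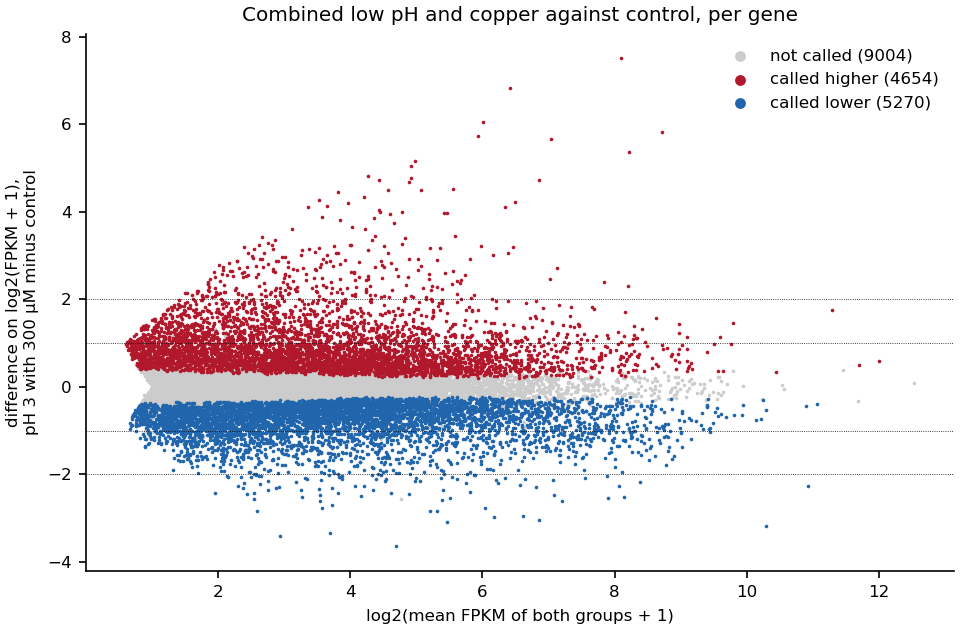
Difference between combined-treatment and control roots on the log2(FPKM + 1) scale (vertical) against the mean level of both groups (horizontal), 1 point per tested gene. Red points are the 4654 genes called higher, blue points the 5270 called lower, and dotted lines mark 2-fold and 4-fold changes. The points farthest from 0 lie on the higher side.

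The combined-treatment libraries were less alike than the others. Their correlations across genes were 0.978 for replicates 1 and 2, 0.987 for replicates 1 and 3 and 0.972 for replicates 2 and 3, against 0.989 to 0.991 among control libraries. The median SD of a gene was 0.179 in combined-treatment roots and 0.114 in control roots, and replicate 2 was the library farthest from its group. Without it, 11335 genes were called. Of the 20122 listed genes, fewer were at 0 in the combined-treatment libraries, 8 to 15 against 45 to 83 in control libraries. Under low pH alone 41 to 56 were at 0, and under copper alone 88 to 118, more than in control libraries.

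The largest rise among annotated genes was that of Cs5g25760. This gene on chromosome 5 (28609629 to 28610819, minus strand) was at 133.07, 214.44 and 159.98 FPKM in combined-treatment roots, against 1.20, 0.16 and 0.24 FPKM in control roots. Every combined-treatment library was thus far above every control library, where the gene was at 1.20 FPKM or less. The difference was 6.83 (SE 0.26, limma adjusted p = 4.06e-06). Neither treatment alone brought the gene to this level. It was at 0.49, 0.94 and 0.30 FPKM under low pH alone and at 11.88, 5.40 and 7.70 FPKM under copper alone.

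Cs3g01585, a gene of 567 bp on chromosome 3 (770541 to 771107, minus strand), was at 78.96, 166.89 and 129.70 FPKM in combined-treatment roots, against 0.11, 0.00 and 4.44 FPKM in control roots. The groups did not overlap, but control replicate 3 stood above the other control libraries. The difference was 6.05 (SE 0.60, limma adjusted p = 9.95e-05), and it was 6.84 without that library. Under low pH alone the gene was at 0.00, 0.57 and 0.34 FPKM and under copper alone at 0.47, 0.11 and 1.78 FPKM, which is the range of the control libraries.

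The assembled locus with the largest rise lies 2491 bp from Cs3g01585 on the same strand of chromosome 3 (767533 to 768050). It was at 356.89, 723.52 and 551.43 FPKM in combined-treatment roots, against 0.51, 0.13 and 12.88 FPKM in control roots. Control replicate 3 was again the high one. The difference was 7.51 (SE 0.82, limma adjusted p = 0.000163), and 8.65 without control replicate 3. Low pH alone gave 0.25, 4.41 and 1.25 FPKM and copper alone 4.46, 1.29 and 4.10 FPKM. A further assembled locus on that strand, from 775097 to 783737, differed by 2.19 and averaged 4.39 FPKM in combined-treatment roots and 0.08 FPKM in control roots.

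The second assembled locus, 526 bp on chromosome 5 (24366991 to 24367516, no strand stated), was at 35.33, 29.83 and 43.88 FPKM in combined-treatment roots, against 0.62, 0.11 and 0.25 FPKM in control roots. The difference was 4.82 (SE 0.19, limma adjusted p = 4.06e-06). It was at 0.10, 0.51 and 0.00 FPKM under low pH alone and at 1.28, 0.48 and 1.93 FPKM under copper alone, so only the combined-treatment libraries passed 2 FPKM.

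The largest falls among annotated genes were a pair of neighbours on the minus strand of chromosome 9. Cs9g07680 (4784083 to 4785449) was at 3.83, 1.98 and 2.84 FPKM in combined-treatment roots, against 44.91, 52.64 and 42.80 FPKM in control roots. The difference was -3.64 (SE 0.18, limma adjusted p = 6.42e-06). Under low pH alone it was at 27.50, 25.46 and 10.49 FPKM, between the other levels, and under copper alone at 1.19, 2.48 and 2.22 FPKM, a range that overlaps that of combined-treatment roots.

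Cs9g07670 (4780623 to 4781599), which ends 2484 bp before Cs9g07680, was at 0.38, 0.21 and 0.32 FPKM in combined-treatment roots, against 11.38, 17.06 and 10.76 FPKM in control roots. The difference was -3.41 (SE 0.18, limma adjusted p = 9.42e-06). As at its neighbour, low pH alone was intermediate, at 4.27, 3.86 and 2.38 FPKM, and copper alone overlapped the combined treatment, at 0.13, 0.80 and 0.32 FPKM. Combined treatment minus copper alone was 0.39 (SE 0.30, limma adjusted p = 0.317) at Cs9g07680 and -0.09 (SE 0.22, limma adjusted p = 0.753) at Cs9g07670, in a test that called 42.4% of all genes. Whether reads shared by near-identical gene copies were split or dropped is not stated, which leaves values of neighbours that might be copies uncertain. The genes flanking this pair differed less: the one on its left, from 4771682 to 4778544, by 0.22 (limma adjusted p = 0.14), and the one on its right, from 4785816 to 4788860, by -0.83 (limma adjusted p = 0.00285).

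Both assembled loci with the largest falls lie on unplaced sequence. The locus from 7624520 to 7625182 was at 0.48, 2.37 and 1.45 FPKM in combined-treatment roots, against 22.44, 26.29 and 18.40 FPKM in control roots (difference -3.33, SE 0.28, limma adjusted p = 4.91e-05). The locus from 46208548 to 46209118 was at 14.72, 32.93 and 19.82 FPKM in combined-treatment roots, against 160.93, 197.46 and 157.32 FPKM in control roots (difference -2.95, SE 0.25, limma adjusted p = 4.91e-05). At both, the mean levels under the single treatments were intermediate, and at the first the lowest library of each single treatment, at 2.21 and 2.16 FPKM, lay below the highest of the combined treatment. The first averaged 3.70 ± 1.31 FPKM under low pH alone and 3.91 ± 1.61 under copper alone, and the second 62.6 ± 13.9 and 49.5 ± 10.5 FPKM in the same order (SD, n = 3 each).

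**Figure D2:**
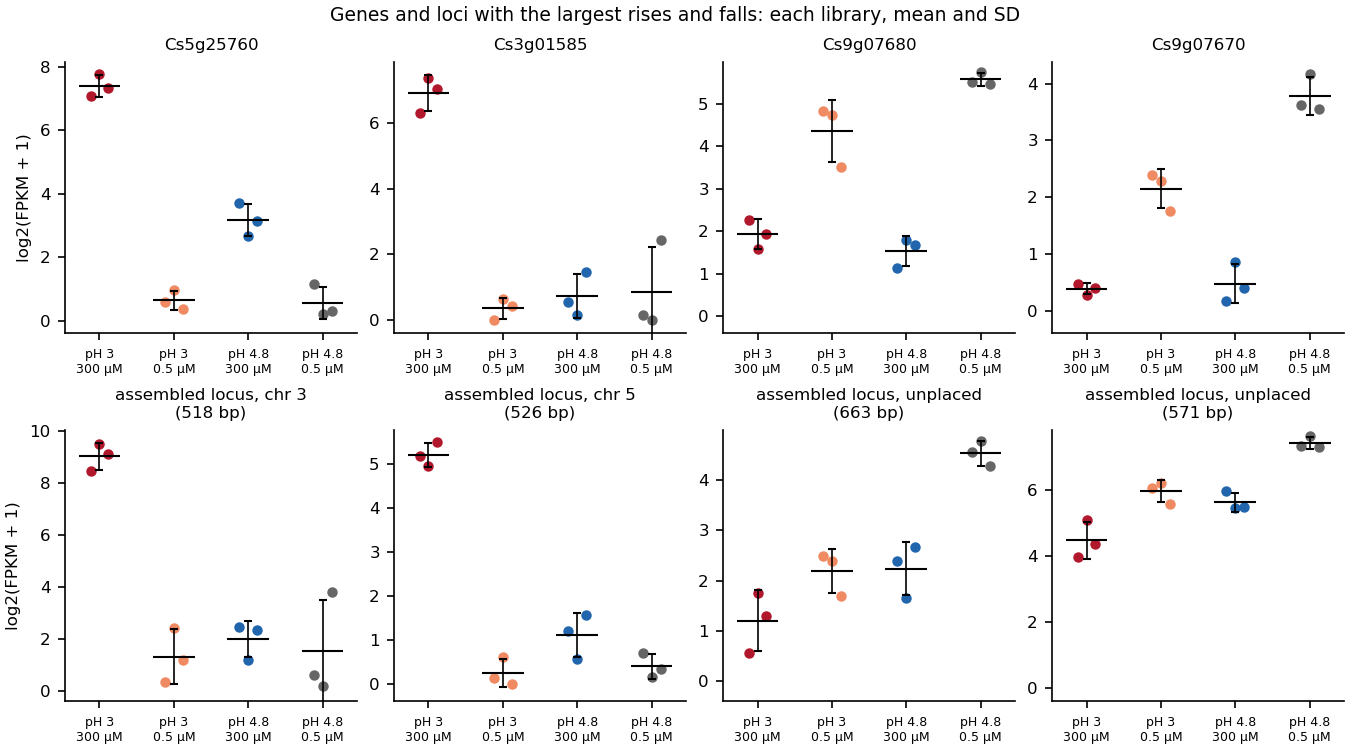
Level of the genes and loci with the largest rises and falls, as log2(FPKM + 1), in the 3 libraries of each group (points), with the mean (line) and SD (bars). The 4 rises, in the first pair of panels of each row, stand high in the pH 3 group with 300 µM copper, and copper alone brings Cs5g25760 to 5.40 to 11.88 FPKM. Of the 4 falls, the annotated pair under copper alone overlaps the combined treatment, and the mean levels of the unplaced loci are intermediate under either single treatment.

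Whether the combined difference equals the sum of the differences of low pH alone and copper alone was tested directly, as a departure from that sum in a fit of all 12 libraries. Over all 19204 genes tested there, 20.8% departed. This share can include genes whose sum passes the largest fall that the log2(FPKM + 1) scale allows, and these were not counted. The 4 leading rises exceeded the sum. They were picked for their combined difference, which is part of the departure, and their p-values take no account of that choice. At Cs5g25760 low pH alone differed from control by 0.08 and copper alone by 2.61, and the combined difference exceeded their sum by 4.14 (SE 0.40, limma adjusted p = 1.82e-05). At Cs3g01585 the single differences were -0.51 and -0.14, and the departure was 6.69 (SE 0.77, limma adjusted p = 6.03e-05). At the assembled loci on chromosomes 3 and 5 the departures were 7.25 (SE 1.10, limma adjusted p = 0.000484) and 4.25 (SE 0.35, limma adjusted p = 4.53e-06).

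At the falling pair on chromosome 9 the measured fall was smaller than the sum. Cs9g07680 differed by -1.21 under low pH alone and -4.03 under copper alone, and the departure was 1.60 (SE 0.42, limma adjusted p = 0.0165). The sum of -5.25 was near the largest fall, -5.57, that this scale allows from its control level. Leaving out 1 library gave departures of 1.18 to 1.84, with limma adjusted p up to 0.044. Cs9g07670 differed by -1.64 and -3.31, and the departure was 1.55 (SE 0.30, limma adjusted p = 0.00289). On this scale no fall from the control level of Cs9g07670 can pass -3.79, while its single differences sum to -4.95, so a departure above 0 was fixed by the scale and is given as a value only. With a pseudocount of 0.1 it was 1.72 (SE 0.59, limma adjusted p = 0.0564). The gene was at 0.80 FPKM or less in every library of both copper groups. The departure was 1.31 (SE 0.45, limma adjusted p = 0.0553) at the first unplaced locus, where the sum of -4.64 was also beyond the limit of -4.53, and 0.30 (SE 0.35, limma adjusted p = 0.581) at the second. The first of these passed the threshold without combined-treatment replicate 1 (adjusted p = 0.0154) or without copper-alone replicate 3 (adjusted p = 0.0393).

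Differences of the single treatments from the same 3 control libraries are set beside the combined ones as a description, since shared controls link them. Across the 288 genes higher by at least 4-fold, the median combined difference was 2.53 (quartiles 2.19 and 3.01). In the same genes low pH alone had a median of 0.72 (quartiles 0.24 and 1.21), and copper alone a median of 1.47 with wide quartiles of 0.55 and 2.62. Copper alone thus ranged from little difference to as much as the combined treatment. The departure from the sum had a median of 0.29 with quartiles of -1.20 and 2.04, so large excesses over the sum and large shortfalls both occurred. Over all tested genes those quartiles were -0.23 and 0.30. The 288 genes were chosen by their combined difference, which is part of the departure. Their wider spread is therefore a description and tests nothing.

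The 90 genes lower by at least 4-fold were more alike. Their median combined difference was -2.26 (quartiles -2.48 and -2.09), with medians of -1.28 under low pH alone (quartiles -1.50 and -0.99) and -1.42 under copper alone (quartiles -1.88 and -0.99). The departure had a median of 0.26 and quartiles of -0.15 and 0.67. These genes too were chosen by the combined difference, and the control level limits how far a gene can fall on this scale. The departures of this set are therefore a description only. Among the 1223 genes lower by at least 2-fold both single treatments had nearly the same median, -0.72 for low pH alone and -0.71 for copper alone, while among the 1487 genes higher by at least 2-fold the medians were 0.44 and 0.97.

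**Figure D3:**
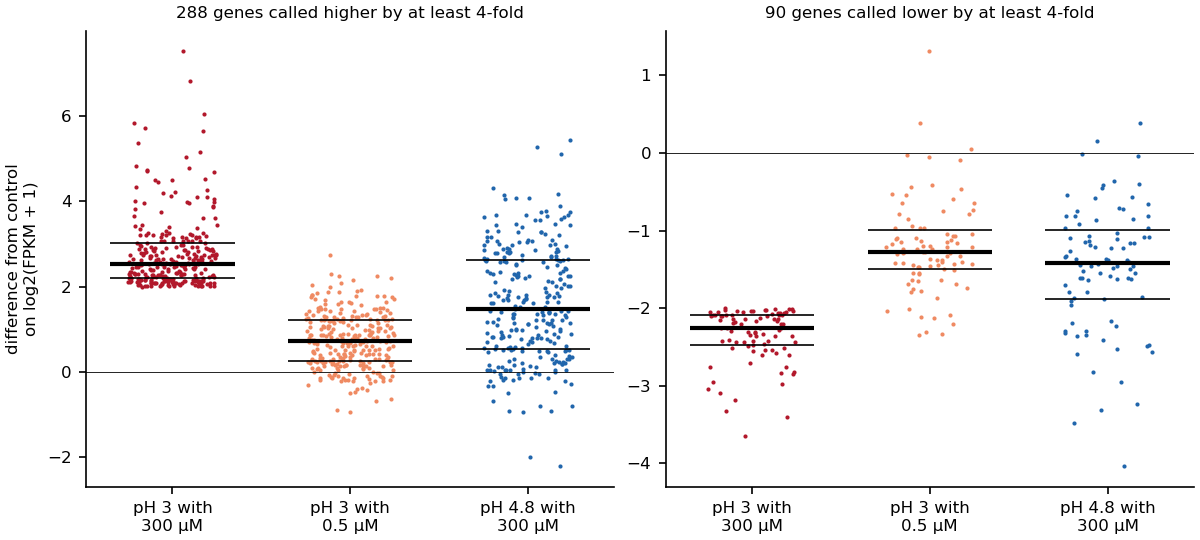
Difference from control on the log2(FPKM + 1) scale in roots under the combined treatment, low pH alone and copper alone, for the genes called higher (left, 288 genes) or lower (right, 90 genes) by at least 4-fold under the combined treatment. Points are genes, thick lines medians and thin lines quartiles; the genes were chosen by the first column. On the left, copper alone spreads from below 0 to above 4, whereas on the right both single treatments centre near -1.3 to -1.4.

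The genes that changed by at least 2-fold held a sizeable part of the transcript pool. Those that fell made up 5.46%, 6.48% and 5.84% of the summed FPKM in combined-treatment libraries, against 14.9%, 15.6% and 14.2% in control libraries. Those that rose made up 10.2%, 10.3% and 9.61% in combined-treatment libraries, against 2.94%, 2.83% and 3.15% in control libraries. For the single treatments the shares lay between: the genes that fell held 9.34% to 10.1% under low pH alone and 8.54% to 9.72% under copper alone, and the genes that rose held 4.45% to 4.86% and 7.11% to 7.61%. These sets were chosen by the same values, so the shares describe the size of the shift and test nothing.

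Single genes contributed visibly to it. The largest loss in FPKM was at a gene of 1002 bp on chromosome 9 (3129179 to 3130180), at 596.13, 730.94 and 699.31 FPKM in combined-treatment roots, against 3294.02, 3552.74 and 2834.37 FPKM in control roots (difference -2.25, SE 0.14, limma adjusted p = 1.46e-05). Low pH alone gave 1641 ± 37.5 FPKM and copper alone 1177 ± 90.6 FPKM (SD, n = 3 each), and the departure from the sum was 0.17 (limma adjusted p = 0.516). This gene, chosen for its loss in FPKM, was a step lower under each single treatment and lower still under both.

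The largest gain in FPKM was at a gene of 1098 bp, also on chromosome 9 (2313276 to 2314373), at 3264.73, 5443.79 and 3000.01 FPKM in combined-treatment roots, against 1030.48, 1113.58 and 1201.09 FPKM in control roots. The difference was 1.76 (SE 0.22, limma adjusted p = 0.00033). Replicate 2 was the highest of the combined-treatment libraries, and all 3 stood above all control libraries. Low pH alone was at 1107.24, 1166.95 and 1141.31 FPKM, within the range of the control roots, and copper alone at 1601.89, 1819.47 and 1536.23 FPKM. The departure was 1.16 (limma adjusted p = 0.00589), and the gene alone held 0.697% of the summed FPKM in combined-treatment roots and 0.189% in control roots.

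A few genes were near 0 in all libraries of one group and clearly expressed in the other. By a fixed limit of at most 0.5 FPKM in all 3 libraries of one group and at least 5 FPKM in all 3 of the other, 23 genes were near 0 in control roots and present in combined-treatment roots, and 1 gene, Cs9g07670, was the reverse. The mean of the 23 genes was 9.09, 12.2 and 9.38 FPKM in combined-treatment libraries, against 0.172, 0.182 and 0.188 FPKM in control libraries. It was 0.717 to 1.26 FPKM under low pH alone, where 18 of the 23 stayed at or under 2 FPKM in all 3 libraries and 0 reached 5 FPKM in all 3.

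Copper alone split these 23 genes. In 8 of them all 3 copper-alone libraries reached 5 FPKM, and the mean of the 8 was 8.21 to 11.0 FPKM by library in combined-treatment roots, 13.7 to 14.4 FPKM under copper alone and 0.134 to 0.208 FPKM in control roots. In 10 of them all copper-alone libraries stayed at or under 2 FPKM, and the mean of the 10 was 8.75 to 11.3 FPKM in combined-treatment roots, 0.554 to 0.812 FPKM under copper alone and 0.142 to 0.245 FPKM in control roots. The other 5 lay between. The limit of 2 FPKM was set after the values were seen.

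In the FPKM values as deposited, the direction of change went with the level of a gene. Of 1133 genes averaging 100 FPKM or more over the 6 libraries, 269 rose (23.7%) and 503 fell (44.4%) in combined-treatment roots, with 2-fold rises in 67 and 2-fold falls in 176. Of 6654 genes under 5 FPKM, 1615 rose and 1558 fell, with 2-fold rises in 608 and 2-fold falls in 372. Quantile normalization narrowed the difference among abundant genes to 376 higher (33.2%) and 406 lower (35.8%), with 104 and 108 by at least 2-fold. In genes under 5 FPKM the shares were then 22.1% higher and 26.2% lower. Among all calls, abundant genes thus no longer leaned more to falls than low genes. Among low genes quantile normalization gave 1472 higher and 1741 lower, and median scaling 1525 and 1701. The larger side of all calls there thus turned with the scaling. The 2-fold rises outnumbered the 2-fold falls under each scaling (522 against 450 under quantile normalization and 566 against 417 under median scaling). With a pseudocount of 0.1 the 2-fold changes of these low genes numbered 1127 rises and 901 falls.

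Short genes fell more often than long ones. The span is the distance from the start to the end of a gene on the chromosome, introns included. Among 407 genes of up to 500 bp, 15.5% fell by at least 2-fold and 8.85% rose in combined-treatment roots. Among 1329 genes of over 8000 bp, 1.13% fell and 5.49% rose. The share of 2-fold falls was also larger in short genes at each level: it was 11.0% up to 1000 bp and 2.10% over 4000 bp among genes under 5 FPKM, 12.8% and 2.69% from 5 to 20 FPKM, 19.3% and 2.15% from 20 to 100 FPKM, and 26.1% and 2.24% from 100 FPKM on. Rises of 2-fold were also more frequent in short genes at each level. In the same order they were 8.11% and 7.46%, 13.3% and 4.15%, 12.8% and 5.86%, and 8.70% and 6.73%. For 2-fold falls, the order of short and long genes held under quantile normalization, with 15.7% up to 500 bp and 1.20% over 8000 bp. It also held under median scaling, with 16.5% and 1.28%.

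The shift differed between libraries. Relative to the control mean, the median gene over 8000 bp stood at 0.28, -0.06 and 0.33 in combined-treatment replicates 1, 2 and 3, and the median gene of up to 500 bp at -0.29, -0.11 and -0.28. The rise of long genes was thus a matter of replicates 1 and 3, and replicate 2 differed from them in the direction of its long genes. In the single treatments, the long genes stood at 0.03, -0.01 and 0.12 under low pH alone and 0.31, 0.20 and 0.18 under copper alone, and the short ones at -0.23, -0.15 and -0.19 and at -0.21, -0.15 and -0.21. RNA integrity values were not used here, and the part of RNA quality or fragment selection in this shift was not tested.

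**Figure D4:**
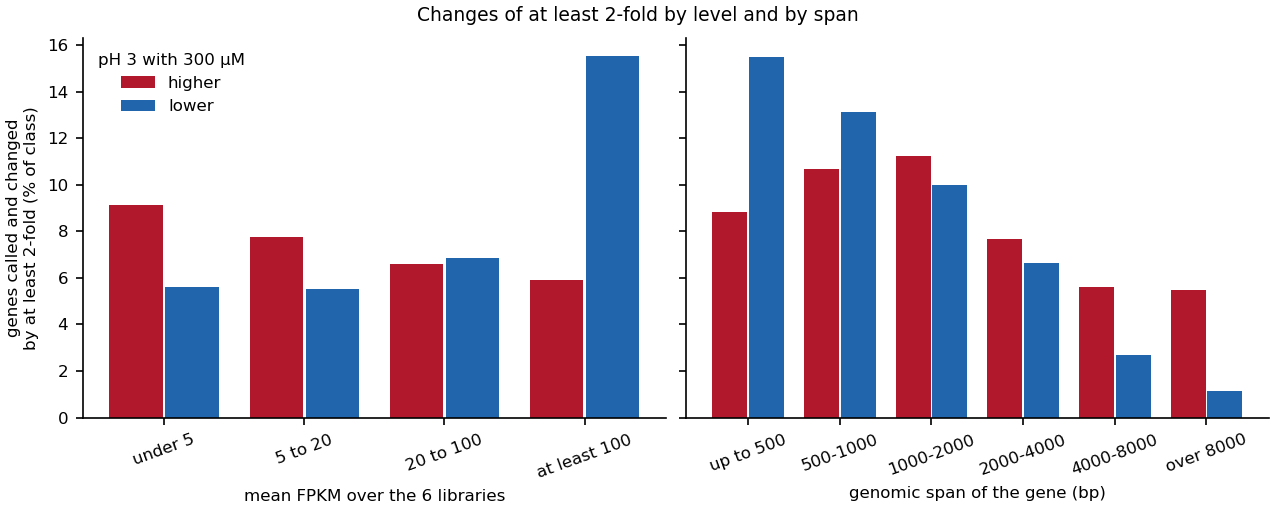
Share of tested genes called and changed by at least 2-fold in combined-treatment roots, higher (red) and lower (blue), by mean level (left) and by genomic span (right). Falls are most frequent among genes of at least 100 FPKM, at 15.5%, and among genes of up to 500 bp, also at 15.5%, and least frequent over 8000 bp, at 1.13%. The values are without further scaling. Quantile normalization gave 108 falls and 104 rises among genes of at least 100 FPKM, against 176 and 67 here.

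Runs of neighbouring genes changed in the same direction. On the 9 chromosomes, 7.66% of tested genes were higher by at least 2-fold, and of these 1228 genes 32.4% had a neighbour in the order of tested genes that was also higher by at least 2-fold, where each gene has a neighbour on either side. For falls the shares were 6.51% of tested genes and, of 1043 genes, 24.4%. The first share of each pair is per gene and the second counts a neighbour on either side, so the shares are not directly comparable. The share of all tested genes with such a neighbour was not counted. Runs of at least 4 neighbours that all changed in one direction by at least 2-fold numbered 18 with rises, holding 81 genes, and 6 with falls, holding 25 genes. The listing does not say which neighbours are copies of one another, so some runs may share reads.

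The longest runs had 7 genes, all higher. One spans 89.0 kb of chromosome 9 (13887366 to 13976316), with 5 genes on the minus and 2 on the plus strand and 1 assembled locus among them. Its summed level was 61.04 to 98.77 FPKM in combined-treatment libraries, against 8.98 to 10.9 FPKM in control libraries, and the median difference of its genes was 1.73 (from 1.01 to 3.99). Low pH alone left the sum at 9.94 to 11.4 FPKM, overlapping the control, and copper alone brought it to 19.04 to 26.34 FPKM, above the control and below the combined treatment.

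The other run of 7 lies on chromosome 1 (16831020 to 16931000), with all genes on the plus strand. Its sum was 289.92 to 320.08 FPKM in combined-treatment libraries, against 84.32 to 102.28 FPKM in control libraries, with a median difference of 1.73 (from 1.37 to 2.48). The sum was 151.83 to 170.53 FPKM under low pH alone, nearer to the control, and 242.62 to 279.34 FPKM under copper alone, nearer to the combined treatment.

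The run with the largest median difference, 4.43, holds 4 genes in 17.6 kb of chromosome 5 (24360056 to 24377606). It contains the assembled locus described above and a second one 1436 bp away, and it begins with a gene from 24360056 to 24361268 that averaged 824 FPKM in combined-treatment roots and 13.8 FPKM in control roots. The summed level was 758.05 to 1141 FPKM in combined-treatment libraries, 12.5 to 15.04 under low pH alone, 32.58 to 49.56 under copper alone and 13.59 to 23.06 in control libraries. A run of 4 genes at 28503127 to 28618502 on the same chromosome includes Cs5g25760 and had the next largest median difference, 3.81.

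The longest run of falls has 5 genes in 88.5 kb of chromosome 2 (20449183 to 20537690), all on the plus strand. Its sum was 31.64 to 90.23 FPKM in combined-treatment libraries, against 144.93 to 156.18 FPKM in control libraries, with a median difference of -1.36 (from -2.26 to -1.23). Low pH alone gave 121.69 to 175.4 FPKM, a range that includes the control libraries, and copper alone 92.24 to 94.53 FPKM. The combined-treatment libraries were spread widely here, and all lay below every library of the other groups.

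**Figure D5:**
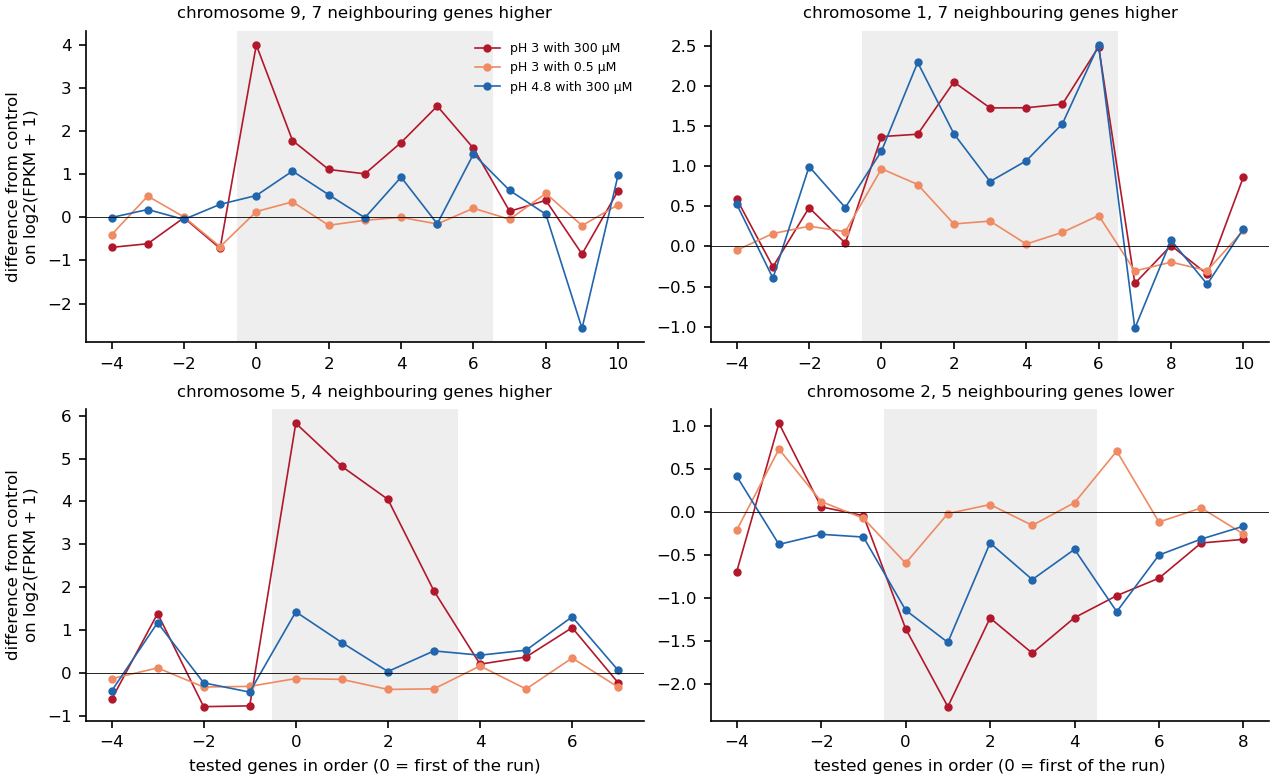
Difference from control on the log2(FPKM + 1) scale along tested genes in chromosomal order, for the combined treatment (red), low pH alone (orange) and copper alone (blue), at the 2 runs of 7 genes, the run with the largest median difference and the longest run of falls. The grey band marks the run, and up to 4 tested genes are shown on each side. In the chromosome 5 run the combined treatment reaches 5.82 while low pH alone stays near 0.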

How the data were processed

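Total RNA of 12 root libraries was sequenced after preparation with the NEBNext Ultra RNA kit, per the labels' protocols. The authors deposited FPKM values per gene and library, with 2 decimals. The submitters' processing notes list, without roles, DESeq2 1.22.1, StringTie 1.3.4d, featureCounts 1.6.2, HISAT2 2.1.0 and fastp 0.19.3. For genome build, annotation and strand setting the entry is: not given in the sources used here.

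FPKM was transformed as log2(FPKM + 1). R 4.3.3 with limma 3.58.1 and a variance trend fitted the comparison to its 6 libraries. Genes whose mean reached 1 FPKM in one of the groups were kept, which left out 1194. Departures from the sum of single-treatment differences came from a fit of all 12 libraries. Tests are two-sided, with Benjamini-Hochberg adjustment per test and a threshold of 0.05. The p-values measure the spread among pools. The fit of 6 libraries was tested on simulated data with the same spread in both groups. It was not tested with the unequal spreads seen here. For depth, 77.0% to 78.0% of low values lay within 0.15 of a whole fragment, too few to rebuild counts.

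Named genes are the 2 largest rises and 2 largest falls without overlap between groups and with 5 FPKM or more as the higher group's mean, among annotated identifiers and among assembled loci, plus the longest runs. Other genes were chosen after their values were seen. The comparison and these rules were chosen with earlier results of these data known. Gene lists by function were not filled, as no identifier has a description.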

Additional observations from a re-analysis of the deposited data

Results flagged for a closer look

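Genes whose response to copper differed between pH 3 and pH 4.8, tested as a departure of the combined difference from the sum of the single-treatment differences, number 3991 of 19204 in limma. Where the sum passes the largest fall that the scale allows, a departure above 0 is fixed by the scale. How many of the 3991 are of this kind was not counted. Among the named genes, departures passed the threshold with 4.14 at Cs5g25760, 6.69 at Cs3g01585, 7.25 at the assembled locus on chromosome 3 from 767533 to 768050 and 4.25 at the assembled locus on chromosome 5 from 24366991 to 24367516. Each of these 4 rose above the sum, but they were picked for the combined difference, which is part of the departure. The departure of 1.60 at Cs9g07680, where the combined fall was smaller than the sum, passed the threshold as well. Its sum of -5.25 was near the largest fall of -5.57 that the scale allows there. The departure of 1.55 at Cs9g07670 also passed, but the sum of -4.95 there lies beyond the largest fall of -3.79 that the scale allows from the control level. With a pseudocount of 0.1 the departure at Cs9g07670 was 1.72 (limma adjusted p = 0.0564), so it is given as a value only.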

How the results depend on the processing

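With a pseudocount of 0.1, 1873 genes were lower by at least 2-fold, 700 higher by at least 4-fold and 275 lower by at least 4-fold, against 1223, 288 and 90 with 1. The other counts over all tested genes stayed within 1.5 times under the fit of all 12 libraries (11109 called), both filters, both scalings and the fit without a variance trend; departures were not recounted under the fit without a trend or the filter at 5 FPKM. Within the class from 100 FPKM on, quantile normalization gave 104 rises and 108 falls of 2-fold, against 67 and 176. Leaving out 1 library gave 7919 to 11335 calls, 3720 to 5561 higher and 4199 to 5774 lower, 1431 to 1673 and 1112 to 1445 by at least 2-fold, 283 to 318 and 76 to 122 by at least 4-fold, and 3198 to 4398 departures. With the replicate number as a block 9798 genes were called. Deviations of same-numbered libraries correlated at 0.12, 0.20 and -0.10, and the labels do not say that a number marks a shared pot or day, so the samples were not treated as pairs. The 8 named differences kept direction and call under all alternatives run. Values near the floor of 0.132 to 0.169 FPKM, which holds for 1 kb and is higher for shorter genes, are not resolved at this depth.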

Other observations

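Changes of at least 2-fold were spread over the genome. Rises made up 6.32% of tested genes on chromosome 7 and 9.32% on chromosome 5, the lowest and highest share among chromosomes and unplaced sequence, and falls 5.60% on chromosome 5 and 8.18% on chromosome 8. Assembled loci, which had a median of 2.36 FPKM in control roots against 9.80 FPKM for annotated genes on chromosomes, rose by at least 2-fold in 8.45% of 1267 cases and fell in 7.66%, against 7.66% and 6.45% of 15136 annotated genes on chromosomes. These differences between classes were not tested.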
